A study of Mus musculus with 6 samples.

Results

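Caveolins and cavins are the proteins that build caveolae, and 4 of their genes were followed here, Cav1, Cav2, Cavin1 (older name Ptrf) and Cavin2 (older name Sdpr). They were chosen by name, and every probe set that the array's gene table pairs with just that symbol was used. This gave 9 probe sets for the 4 genes, out of 34945 probe sets of a single symbol and 18193 genes on the array. For each gene the probe set brightest on average over the 6 arrays gives the main value. All 4 genes were above the detection floor on all 6 arrays and were among the 13335 genes tested.

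The study set 2 sorted cell populations of the mouse lung side by side, with 3 biological replicates of each and 1 array per replicate, the sort being by fluorescence. The E18 samples were Muc1+/Pdpn+ cells from lungs at embryonic day 18, named bipotent progenitors in the series title, and the adult samples were Lyz2+/EpCAM+ cells, named ATII, the alveolar type II cells that make surfactant. Muc1 and EpCAM are epithelial surface proteins, Pdpn is a glycoprotein on the surface of type I cells, and Lyz2 is a lysozyme. Strain, sex, any allele or reporter behind the sorts, and whether animals were pooled are not given in the sources used here, and age and sorted population differ together. Values are log2 of the deposited signal, and differences are adult minus E18, so a negative difference is lower in the adult arrays. Where 3 values of a group are listed, they are replicates 1, 2 and 3 in that order.

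Caveolae are small flask-shaped pits of the plasma membrane, rich in cholesterol, that buffer membrane tension and take part in endocytosis and signalling. Caveolins sit in the membrane as oligomers, cavins form the coat on the cytoplasmic side, and Cavin1 is required for the pits to form. In the lung, caveolae are abundant in the flat type I cells of the alveolus, in endothelium, and in fibroblasts and smooth muscle, while type II cells have few.

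The sequences before the transcription starts of the 4 genes are shown because their signals were lower together in the adult arrays. All 4 members were matched by symbol in RefSeq's GRCm38.p6 promoters. Cav2 lies at chr6:17280935-17281184 (plus strand), Cav1 at chr6:17306085-17306334 (plus strand), Cavin1 at chr11:100970618-100970867 (minus strand) and Cavin2 at chr1:51288876-51289125 (plus strand), each window being the 250 bases before an annotated start. Cav2 and Cav1 are neighbours on chromosome 6, read in the same direction, with 0 annotated genes between them. Cav1 has a further annotated start and Cavin1 a start a few bases away, which are not printed. Capitals mark matches, on either strand, to the 4 motifs searched, GGGCGG (GC box), CATTCC (the TEAD motif), TCACNCCAC (a sterol element) and TATAAA (a core promoter box).
Cav1: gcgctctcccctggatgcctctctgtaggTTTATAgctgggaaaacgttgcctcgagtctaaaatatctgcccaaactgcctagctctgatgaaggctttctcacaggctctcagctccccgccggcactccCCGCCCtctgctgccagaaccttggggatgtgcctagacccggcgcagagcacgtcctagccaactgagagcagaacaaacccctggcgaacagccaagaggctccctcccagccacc
Cav2: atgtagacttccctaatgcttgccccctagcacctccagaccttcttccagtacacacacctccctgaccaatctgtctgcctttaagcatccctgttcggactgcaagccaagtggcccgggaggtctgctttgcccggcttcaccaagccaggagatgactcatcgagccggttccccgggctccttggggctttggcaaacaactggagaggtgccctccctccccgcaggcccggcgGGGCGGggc
Cavin1: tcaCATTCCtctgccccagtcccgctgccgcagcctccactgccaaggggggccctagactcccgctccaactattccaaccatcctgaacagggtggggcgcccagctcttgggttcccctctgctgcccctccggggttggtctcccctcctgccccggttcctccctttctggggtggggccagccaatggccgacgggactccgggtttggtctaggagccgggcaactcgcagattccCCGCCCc
Cavin2: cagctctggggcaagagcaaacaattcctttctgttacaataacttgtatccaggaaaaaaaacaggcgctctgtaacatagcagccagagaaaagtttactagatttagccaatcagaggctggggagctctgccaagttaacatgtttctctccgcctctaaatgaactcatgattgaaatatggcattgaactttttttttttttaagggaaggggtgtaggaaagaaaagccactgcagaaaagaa

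A GC box stood in 3 of these windows, 118 bases before the start in Cav1, 9 in Cav2 and 7 in Cavin1, and 33.0% of 32536 promoter windows of this length hold one. The TEAD motif was present only in Cavin1, 247 bases before the start (12.6% of windows), and TATAAA only in Cav1, 221 bases before it (12.3%). None of these 4 windows held the sterol element (1.0% of windows), and the Cavin2 window held none of the 4 motifs. The Cavin2 window was also the poorest in CG pairs, with 2 of them and 40.4% G and C, against 10 and 59.6% in Cav1, 10 and 62.0% in Cav2 and 12 and 67.6% in Cavin1. These matches describe the letters and were not tested for use.

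Some arrays stood apart from the others. The poly-A spike-ins, bacterial RNAs added before amplification, averaged a log2 signal of 13.74 and 14.25 in replicate 3 of the E18 and of the adult group, against 7.10 to 9.81 in the other arrays. The signal of the Gapdh 3' end over its 5' end, a measure of RNA length, was 24.6 in adult replicate 1 and 4.70 to 6.18 elsewhere. Adult replicate 3 had higher airway and epithelial signals than the other adult arrays. The summed signal of the listed epithelial markers was 15860, 17806 and 22746 in the E18 arrays and 2935, 3117 and 41130 in the adult arrays. Adult replicates 1 and 2 thus lay below every E18 array, although labelled EpCAM+, and they had the highest leukocyte sums (143650 and 91262). The markers that name the adult sort did not pass as higher in the adult arrays. Lyz2 read 14.13, 14.04 and 14.27 in the E18 arrays and 11.44, 11.28 and 11.13 in the adult arrays, which is 7.27-fold lower (limma adjusted p = 0.00303) and runs against the Lyz2+ label, although Lyz1, a close paralog, leaves the assignment of lysozyme signal uncertain. Epcam read 10.69, 11.31 and 9.26 in the E18 arrays against 7.85, 8.50 and 10.68 in the adult arrays. Sftpc, the surfactant protein of type II cells, was high in both groups. It read 14.05, 13.90 and 14.17 in the E18 arrays and 14.67, 14.50 and 14.52 in the adult arrays (0.52, limma adjusted p = 0.258). The detection floor, the 40th percentile of each array, lay between log2 5.40 and 6.10, and the number of arrays limits the precision. Over all genes tested, 4.57% passed as lower in the adult arrays and 1.41% as higher (limma, Benjamini-Hochberg adjusted p under 0.05), 21.6% had an unadjusted p under 0.05 in either direction, and the median difference was -0.17.

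All 4 caveolin and cavin genes passed as lower in the adult arrays, against the 4.57% of all genes given above. Every adult array lay below every E18 array for each of the 4, which holds for 18.8% of genes tested. The decreases ran from 5.05-fold for Cav2 to 19.6-fold for Cavin1. In sorted bulk RNA, fewer cells expressing a gene and less of its RNA per cell cannot be told apart.

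**Figure D1:**
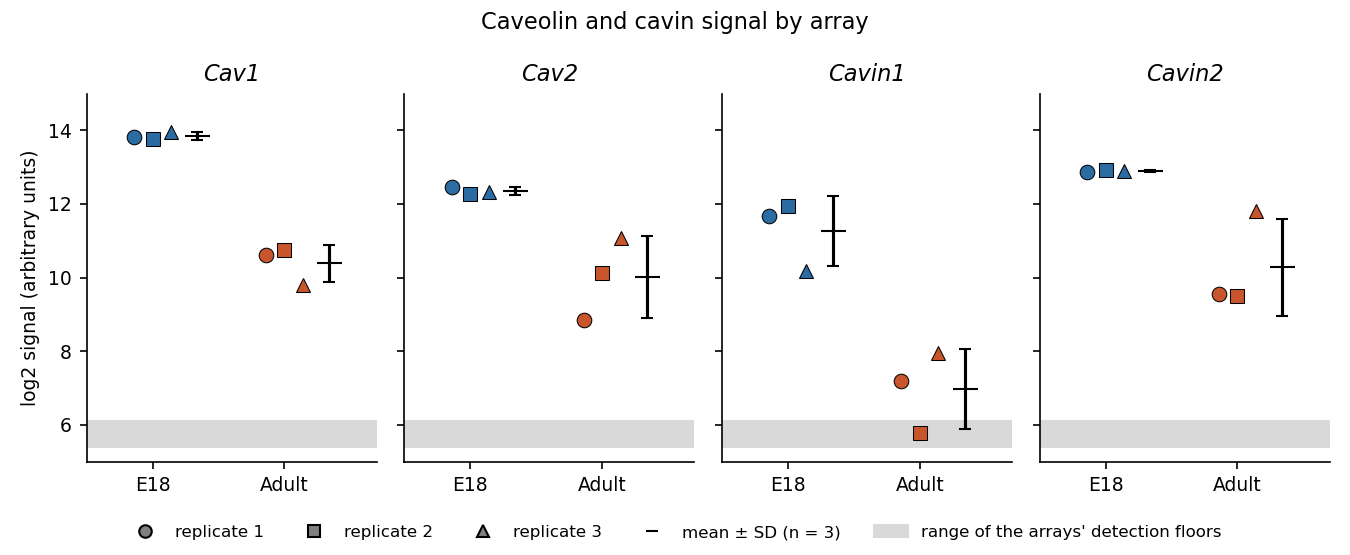
Log2 signal of the main probe set of each gene on the 6 arrays, by group, with the marker shape giving the replicate and the bar the mean ± SD (n = 3). Adult values lie below E18 values for all 4 genes, and Cav2 and Cavin2 are highest among the adult arrays in replicate 3, where Cav1 is lowest.

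Cav1 encodes caveolin-1, the structural caveolin of caveolae outside striated muscle. Its signal was 13.82, 13.77 and 13.96 in the E18 arrays and 10.61, 10.74 and 9.80 in the adult arrays. The E18 arrays were tightly grouped, and the nearest arrays of the groups were 3.03 apart. The difference was -3.46 (SE 0.32, 95% interval -4.21 to -2.71, limma adjusted p = 0.00374), an 11.0-fold lower signal in the adult arrays (10.39 ± 0.51 against 13.85 ± 0.10, SD, n = 3). Of all genes tested, 1.78% had a difference at least as low.

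Cav2 encodes caveolin-2, which forms mixed oligomers with caveolin-1. Its signal was 12.46, 12.27 and 12.33 in the E18 arrays and 8.85, 10.12 and 11.09 in the adult arrays. The adult arrays were spread over 2.24, with replicate 3 closest to the E18 level, and a gap of 1.18 separated the groups. The difference was -2.33 (SE 0.53, 95% interval -3.58 to -1.09, adjusted p = 0.0482), or 5.05-fold lower (10.02 ± 1.12 against 12.35 ± 0.10). Among all genes tested, 5.33% had a difference at least as low.

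Cavin1 encodes the coat protein without which caveolae do not form. Its signal was 11.68, 11.95 and 10.18 in the E18 arrays and 7.20, 5.79 and 7.95 in the adult arrays. It was the only member whose E18 arrays were spread, over 1.77, since E18 replicate 3 lay below the other E18 arrays, and adult replicate 2 was close to its array's floor of 5.40. The difference was -4.29 (SE 0.67, 95% interval -5.85 to -2.74, adjusted p = 0.015), or 19.6-fold lower (6.98 ± 1.10 against 11.27 ± 0.95). A difference this low was seen in 0.81% of genes tested.

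Cavin2 encodes a cavin that binds phosphatidylserine and shapes caveolar membrane. Its signal was 12.88, 12.91 and 12.90 in the E18 arrays and 9.55, 9.50 and 11.80 in the adult arrays. The E18 arrays differed by 0.03 in all, while adult replicate 3 stood 2.27 above the mean of the other adult arrays, which left a gap of 1.08 to the E18 arrays. The difference was -2.61 (SE 0.60, 95% interval -4.01 to -1.21, adjusted p = 0.0492), or 6.12-fold lower (10.28 ± 1.31 against 12.90 ± 0.02). At least as low a difference was found in 4.13% of genes tested.

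Within replicates 1 and 2 alone the differences were -3.12 for Cav1, -2.88 for Cav2, -5.32 for Cavin1 and -3.37 for Cavin2, and all 4 passed (limma adjusted p = 0.005, 0.0176, 0.00529 and 0.00492). Within replicate 3 the differences were -4.16 for Cav1, -1.25 for Cav2, -2.23 for Cavin1 and -1.11 for Cavin2, with 1 array against 1 and no test. With the third replicates as a block all 4 passed. Adult replicate 3 minus E18 replicate 3 was thus larger in size for Cav1 and smaller for the other 3 genes. The labels do not say that same-numbered samples are pairs, so these values compare 2 separate samples.

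Which arrays were included decided the calls of 3 of the 4 genes, and only Cav1 passed whichever array was left out (adjusted p from 0.00122 to 0.0378). Cav2 did not pass without E18 replicate 1 (adjusted p = 0.185), E18 replicate 2 (0.172), E18 replicate 3 (0.111) or adult replicate 2 (0.146). Cavin1 did not pass without E18 replicate 1 (adjusted p = 0.0856), E18 replicate 2 (0.082) or adult replicate 2 (0.0525). Cavin2 passed only without adult replicate 3 (adjusted p = 0.00108), and not without E18 replicate 1 (0.175), E18 replicate 2 (0.177), E18 replicate 3 (0.116), adult replicate 1 (0.13) or adult replicate 2 (0.165). The difference of each gene stayed negative in these fits.

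**Figure D2:**
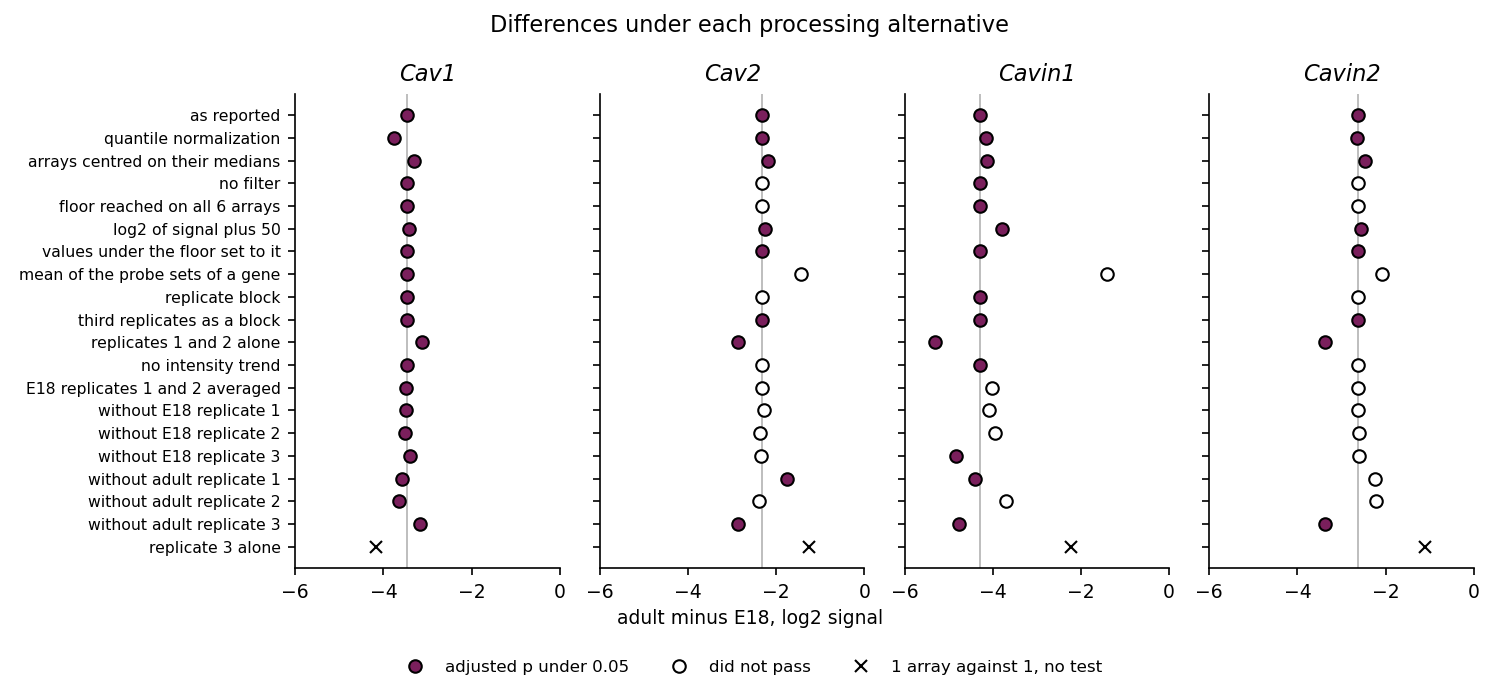
Difference of each gene (adult minus E18, log2 signal) under each way of processing, with filled circles at an adjusted p under 0.05, open circles where the test was not passed, and crosses where 1 array was set against 1. Cav1 is filled in every tested fit, from -3.76 to -3.12, while Cav2 and Cavin2 are open in many fits at nearly the same difference.

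Several probe sets were available for 3 of the genes, and those of Cavin2 differed in the E18 arrays, where the main one was level (SD 0.02) and the others were spread (SD 0.61 and 0.51). The 2 other Cavin2 probe sets read 11.20, 11.36 and 12.33 against 9.43, 8.19 and 11.28 (1416779_at) and 10.91, 11.12 and 11.89 against 9.14, 8.81 and 11.16 (1443832_s_at). Both had replicate 3 as the highest array of each group, and adult replicate 3 overlapped the E18 arrays, and neither passed (differences -1.999 and -1.60, limma adjusted p = 0.184 and 0.207 over all 23674 probe sets tested). In that table, where 3.51% of probe sets passed as lower, the main probe sets of Cav1 (1449145_a_at) and Cavin1 (1424130_a_at) passed (adjusted p = 0.00328 and 0.015). Those of Cav2 (1417327_at) and Cavin2 (1416778_at) did not (0.0513 and 0.0517). The other Cav2 probe set, 1425955_at, was near the floor, between 4.86 and 6.85 on all arrays, and differed by -0.53 (adjusted p = 0.668). The 2 other Cavin1 probe sets, 1421431_at and 1453891_at, were under the floor on all 6 arrays and were not tested.

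**Figure D3:**
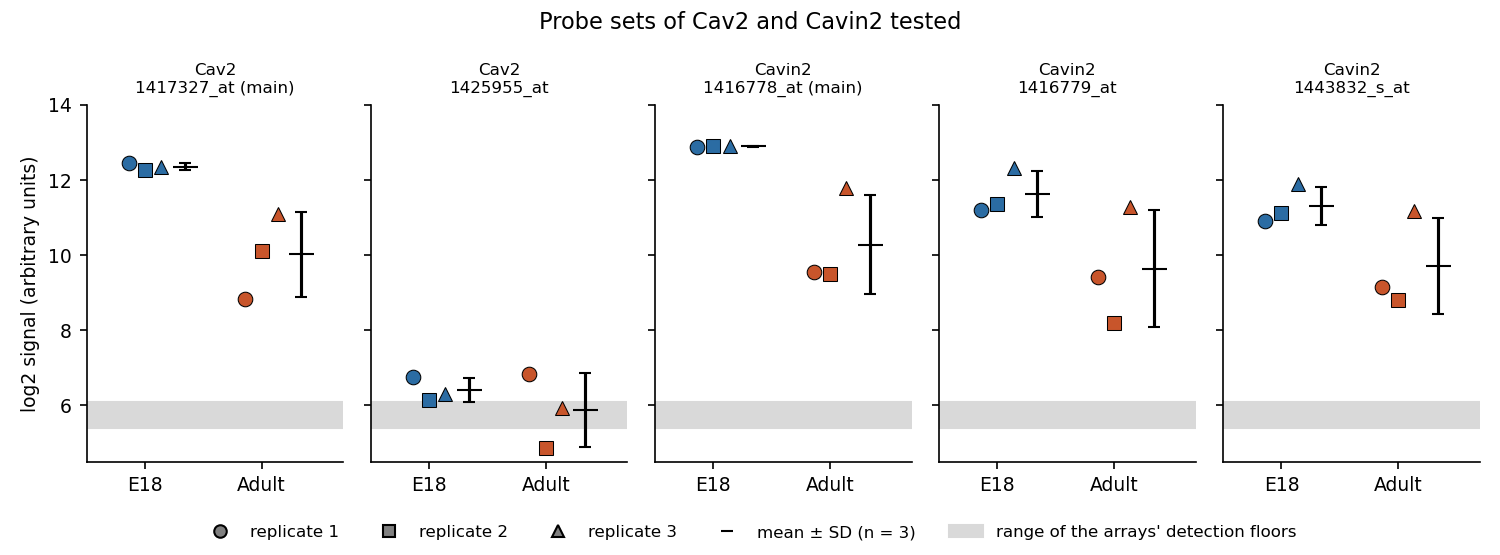
Log2 signal of the tested probe sets of Cav2 and Cavin2 on the 6 arrays, with marker shapes for replicates, bars for the mean ± SD (n = 3) and a grey band for the range of the detection floors. The 3 Cavin2 probe sets share the high adult replicate 3 and differ in the E18 arrays, and the second Cav2 probe set lies near the floor in both groups.

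Whether members changed by unequal amounts was examined for the 6 pairs, using the log2 difference of their main probe sets within each array, which any scaling of an array leaves as it is. Cavin1 fell further than Cav2 by 1.96 and further than Cavin2 by 1.68 on the log2 scale (exact two-sided permutation p = 0.2 for each, 0.6 adjusted over the 6 pairs). The change of Cav1 minus that of Cav2 was -1.13 (exact permutation p = 0.4), and those of the other 3 pairs had an exact permutation p of 0.6 to 1. With 3 arrays against 3 this test cannot go below 0.1, so it could not show unequal change at this size. Cav1 and Cav2, although neighbours in the genome, had the log2 difference of their probe sets at 1.36, 1.50 and 1.63 in the E18 arrays and at 1.77, 0.62 and -1.29 in the adult arrays. That difference was steady in the E18 arrays and varied among the adult arrays, mostly through replicate 3.

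Of the other proteins at the caveolar neck and coat, some were lower with the members and others were not. Of 10 listed genes 9 were on the array and 8 were tested, 1 of which, Cavin4, entered the test through the E18 arrays alone. Of the other 7 genes 2 fell, 1 rose and 4 did not pass, beside 4.57% of all genes that passed as lower and 1.41% as higher. Their median difference was -0.19, beside -0.17 over all genes. Cavin3 and Pacsin1, both among these 7, were under the floor in 2 of 3 arrays of their lower group. Pacsin1 in E18 replicate 2 was 5.658 against a floor of 5.651. Each would have met the filter through its higher group alone, so their calls depend in part on the filter. Cavin3, another widely expressed cavin, stood at 8.69, 8.76 and 8.59 in the E18 arrays and at 4.39, 5.81 and 5.15 in the adult arrays, under the floor in adult replicates 1 and 3 (difference -3.57, SE 0.47, limma adjusted p = 0.00955). Ehd2, the ATPase that anchors caveolae at the surface, read 10.14, 10.05 and 9.90 against 8.16, 7.05 and 7.35 (-2.51, SE 0.38, adjusted p = 0.0129). Cavin3 passed in 14 of 17 alternative fits and Ehd2 in 13 of 18, and neither did without E18 replicate 1 (adjusted p = 0.0753 and 0.095) or E18 replicate 2 (0.0734 and 0.0867), nor Ehd2 without adult replicate 2 (0.052). Cavin4, the muscle cavin, read 7.11, 7.02 and 7.86 in the E18 arrays and was below the floor throughout the adult arrays, which makes it at least 2.98-fold lower there. Since a gene measured in just the E18 arrays had to differ, its test is not used. For Cavin3 and Ehd2 no adult array reached the lowest E18 array, which holds for 18.8% of genes tested.

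Pacsin1, the neuronal member of a family of membrane-bending proteins, was the gene of this list that rose, from 4.71, 5.66 and 5.60, under the floor in E18 replicates 1 and 3, to 8.23, 7.52 and 6.98 (2.25, SE 0.52, adjusted p = 0.0488). This call was close to the threshold and held in 6 of 17 alternative fits, whose adjusted p ran from 0.0131 to 0.218. It was lost after quantile normalization (0.0576), with no filter (0.0584), with the third replicates as a block (0.0587), with the replicate block (0.12), with probe sets averaged (0.107), with the E18 pair averaged (0.175) and without any 1 array other than adult replicate 3 (0.0889 to 0.218). Pacsin3, from the same family, differed by -0.88 (adjusted p = 0.314). The EHD relatives Ehd1, Ehd3 and Ehd4 differed by 0.74, 0.37 and -0.19 (adjusted p = 0.594, 0.701 and 0.811), so Ehd2 was the only EHD gene to pass. Cav3, the muscle caveolin, did not reach the floor on any of the 6 arrays. The count for this list, 4 with Cavin4, fell to 0 without E18 replicate 1 or E18 replicate 2. It was 2 without E18 replicate 3 and 1 without adult replicate 2. Of all 13335 genes 69, 66, 505 and 226 passed in these fits, in that order. Without E18 replicate 1 or E18 replicate 2, 4 of the 8 had an unadjusted limma p under 0.05. With all 6 arrays 21.6% of all genes had one.

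Of 11 listed genes for proteins that caveolae hold or act on, 0 passed with all 6 arrays (limma). This count is near the shares of all genes, 4.57% lower and 1.41% higher. Of the 11 genes 5 had an unadjusted limma p under 0.05, which 21.6% of all genes reached. Their median difference was -0.71, beside -0.17 over all genes. Bmpr2, a BMP receptor, read 12.73, 12.74 and 12.21 in the E18 arrays and 11.83, 12.12 and 11.42 in the adult arrays (-0.77, adjusted p = 0.199). Flna, the actin crosslinker that tethers caveolae, read 12.13, 12.17 and 12.66 against 10.98, 12.74 and 11.99 (-0.42, adjusted p = 0.642). The endothelial genes of the list, Plvap and Nos3, had differences of -3.45 and -1.40 (adjusted p = 0.196 and 0.119). The number passing was 3 without adult replicate 3 and 3 in replicates 1 and 2 alone, where 2770 and 2996 of all 13335 genes passed.

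Clathrin coat genes, which serve a separate route of endocytosis, mostly did not pass. Of 13 tested 1 fell, none rose and the other 12 did not pass (limma), a count near the 4.57% of all genes that passed as lower. The median difference was -0.50, beside -0.17 over all genes. Every adult array lay below every E18 array for 3 of the 13, beside 18.8% of all genes. The gene that fell was Dab2, a clathrin adaptor, at 12.77, 12.86 and 13.01 in the E18 arrays and 9.54, 10.34 and 11.70 in the adult arrays (-2.36, SE 0.52, adjusted p = 0.0431), and it passed in 9 of 18 alternative fits. The clathrin heavy chain Cltc, at 12.66, 12.69 and 12.66 against 11.60, 12.23 and 12.46, differed by -0.57 (adjusted p = 0.322), and the light chain Clta by 0.53 (adjusted p = 0.344). Epn2, another gene of this list, differed by -1.87 (limma adjusted p = 0.0583). Whether the members differ from the clathrin list was not tested. Without any 1 array other than adult replicate 3 the count for this list was 0, with 2 to 4 genes at an unadjusted limma p under 0.05, and without adult replicate 3 it was 2. Of all 13335 genes 66 to 572 passed in the former fits and 2770 in the latter.

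**Figure D4:**
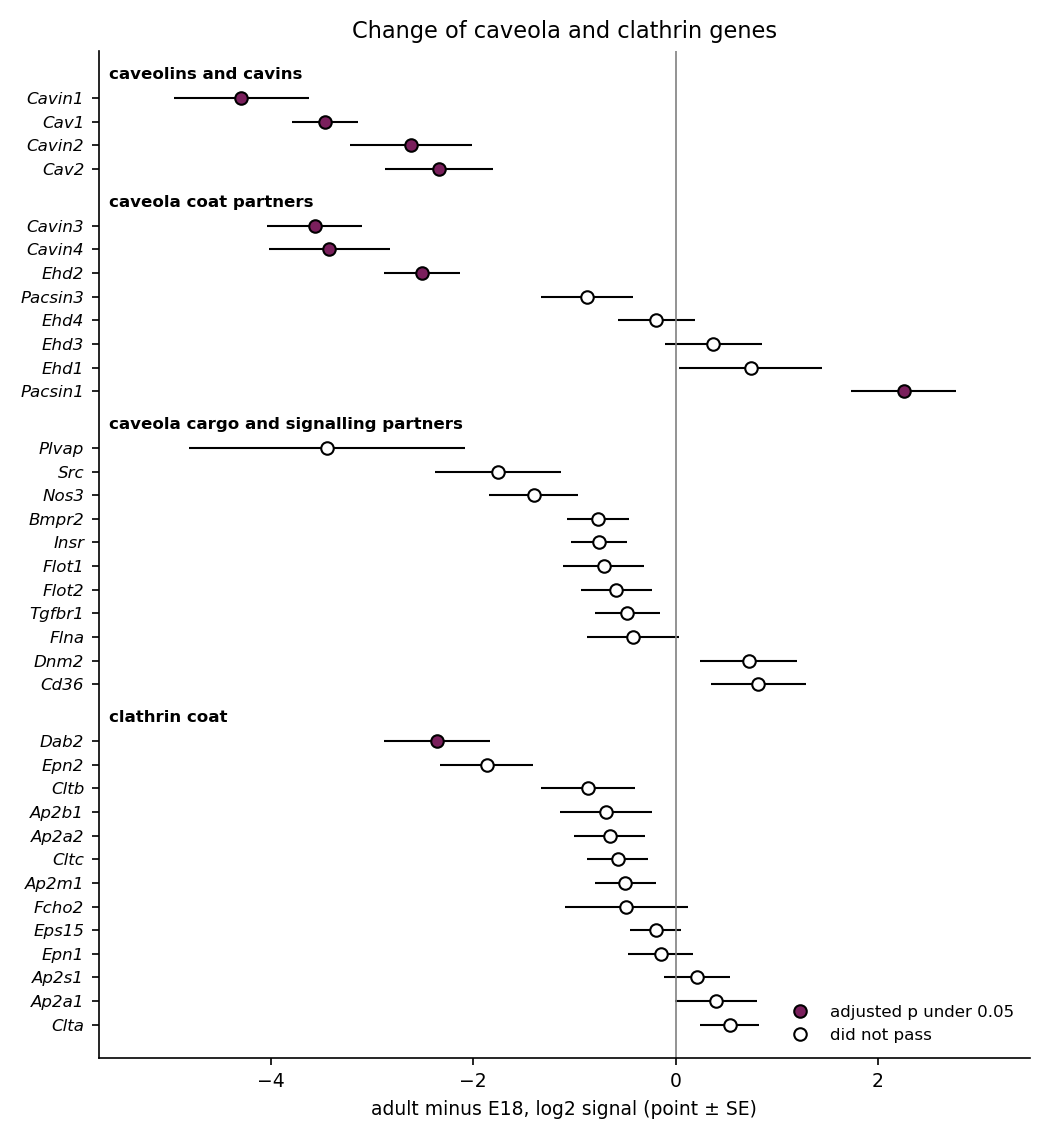
Difference of each tested gene (adult minus E18, log2 signal, point ± SE) for the members and 3 lists of related genes, filled where the adjusted p was under 0.05. The 4 members, Cavin3, Cavin4, Ehd2 and Dab2 are filled on the lower side and Pacsin1 on the higher side, Cavin4 being below the floor in all 3 adult arrays.

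Markers of cells that carry caveolae had lower summed signals in the same arrays. Beside the counts below, 4.57% of all genes tested passed as lower. Of 15 mesenchymal genes tested 11 passed as lower, and their summed signal was 43962 to 71774 in the E18 arrays and 2844 to 15743 in the adult arrays, with Myh11 below the floor throughout the adult arrays. For endothelium 4 of 15 passed as lower, with summed signals of 8489 to 31028 against 3349 to 4427 and Tie1 below the floor throughout the adult arrays. For mesothelium 3 of 5 passed as lower, at 5322 to 7313 against 366 to 775, with Wt1 below the floor throughout the adult arrays. For type I cells 5 of 12 passed as lower, at 55603 to 85142 against 13653 to 26025, and each of the 12 reached the floor in at least 1 adult array. Pdpn, counted in the 5 and in the sums, is also a marker by which the E18 cells were sorted. It read 11.65, 12.14 and 12.08 in the E18 arrays and 9.80, 9.38 and 9.88 in the adult arrays (-2.27). Its call is therefore not independent of the sort. Myh11, Tie1 and Wt1 entered the test through the E18 arrays alone, and without them the counts were 10 of 14, 3 of 14 and 2 of 4. Mfap4 and Lum, counted in the 10, were under the floor in 2 of 3 adult arrays. The counts of these lists depended on single arrays. With 1 array left out they were 1 to 12 for mesenchyme, 0 to 10 for endothelium, 0 to 4 for mesothelium and 1 to 10 for type I cells. Without E18 replicate 1 they were 1, 0, 1 and 1 in that order, without E18 replicate 2 they were 1, 0, 0 and 1, and without adult replicate 2 they were 3, 1, 1 and 2. They were 5, 4, 2 and 3 without E18 replicate 3, 8, 2, 2 and 5 without adult replicate 1, and 12, 10, 4 and 10 without adult replicate 3. The part of these cells in the caveolin and cavin decreases was not tested.

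Single arrays separated some of these markers from some of the members. In E18 replicate 3 the endothelial sum was 8489, against 30203 and 31028 in the other E18 arrays, the mesenchymal sum was 43962 against 69831 and 71774, and the type I sum was 85142 against 56774 and 55603. There the main probe sets of Cav1, Cav2 and Cavin2 differed from the mean of the other E18 arrays by 0.17, -0.03 and 0.01, and that of Cavin1 by -1.63, while the 2 other Cavin2 probe sets were 1.04 and 0.87 higher. In adult replicate 3, 10 of 15 endothelial and 6 of 15 mesenchymal genes were under the floor, including Pecam1 at 3.41 and Plvap at 3.34. By definition 40% of all probe sets of an array lie under its floor. The markers are counted by the brightest probe set of each gene, for which the share over all genes was not computed. Kdr (8.61, 9.43 and 11.10 in the adult arrays) and Eng (7.78, 8.33 and 8.64) were instead highest in that replicate. There Cav2, Cavin1 and Cavin2 were above the mean of the other adult arrays by 1.60, 1.45 and 2.27, and Cav1 was below it (-0.88). The type I sum was highest there too, at 26025 against 20418 and 13653. In the same array the summed epithelial signal was 41130, against 2935 and 3117 in adult replicates 1 and 2, and the airway sum was 85216 against 19156 and 15958. In the E18 arrays these sums were 15860 to 22746 and 20524 to 26400.

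Leukocyte markers had higher summed signals in the adult arrays, with 33884 to 47242 in the E18 arrays and 143650, 91262 and 51831 in the adult arrays. Of 10 tested genes 1 passed as higher and 0 as lower, beside 1.41% and 4.57% of all genes. The gene that passed, Cd2, was under the floor in 2 of 3 E18 arrays. The leukocyte count was 8 without adult replicate 3 and 0 without E18 replicate 1 or E18 replicate 2, where 2770, 69 and 66 of all 13335 genes passed. Type II cell genes had overlapping sums of 63686 to 88372 and 54838 to 87651, and 1 of 12 fell, Lyz2, whose values are given above, with 3 passing without adult replicate 3. None of the 6 macrophage, 5 airway, 4 epithelial or 2 erythroid genes tested passed (limma), which is near the shares of all genes. At an unadjusted limma p under 0.05 there were 2, 2, 0 and 2, beside 21.6% of all genes. Without adult replicate 3, 3 macrophage, 1 airway, 4 epithelial and 2 erythroid genes passed, where 2770 of all 13335 genes did. The 4 epithelial genes, Epcam, Cdh1, Krt8 and Krt18, passed as lower in the adult arrays, although EpCAM names the adult sort. Each was lower in adult replicates 1 and 2 than in every E18 array. Without E18 replicate 3, where 505 of all genes passed, there were 1 macrophage and 1 erythroid. The part of these cells in the results for the members was not tested either.

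**Figure D5:**
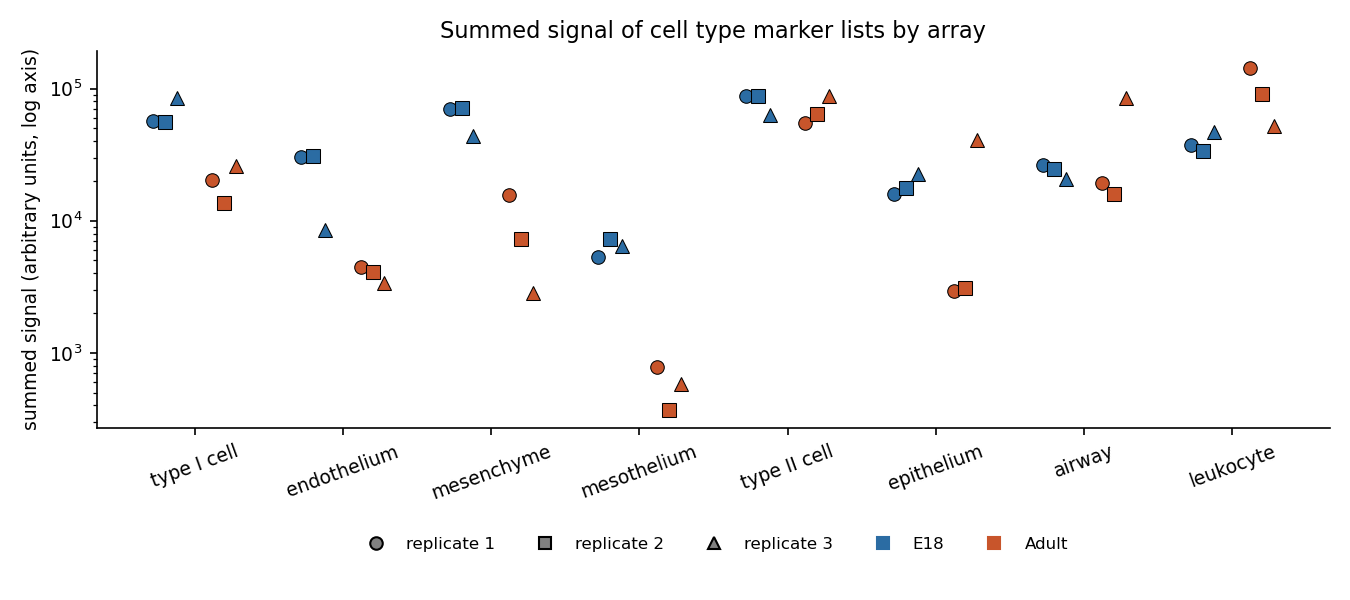
Summed signal of 8 marker lists on each array (arbitrary units, log axis), blue for E18 and orange for adult, with marker shapes for replicates. Type I, endothelial, mesenchymal and mesothelial sums are lower in all adult arrays. Epithelial and airway sums are highest in adult replicate 3 and lowest in adult replicates 1 and 2.

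The genes whose profiles over the 6 arrays were most like those of the members were found by the root-mean-square difference between log2 profiles, each centred on its own mean. For Cav1 these were Mgp (0.23), Sparc (0.26) and Pmp22 (0.28), which encode a matrix Gla protein, a matrix glycoprotein and a myelin membrane protein. Mgp read 12.63, 12.69 and 12.78 against 9.24, 8.95 and 8.46, lowest in adult replicate 3 as Cav1 was. For Cav2 they were Arhgap19 (0.10), Sec61a2 (0.16) and Dab2 (0.18), the adaptor described above. For Cavin1 they were Slc1a3 (0.31), Pgam2 (0.41) and Igdcc4 (0.45), and for Cavin2 Emilin3 (0.15), Mmp14 (0.15) and Nectin2 (0.17). Mmp14, a membrane-bound matrix protease, read 11.31, 11.56 and 11.45 against 8.19, 8.07 and 10.02, with the same high adult replicate 3 as Cavin2.

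Among the members, Cav2 and Cavin2 had the most alike profiles, with a root-mean-square difference of 0.47, and 128 of the genes tested were closer than that to Cav2. For Cav1 and Cav2 it was 1.06, with 640 genes closer to Cav1 and 3190 closer to Cav2. Cavin1 was 1.11 to 1.36 from the other 3 members. The members thus shared the lower adult signal, and their profiles differed within the groups, mainly in adult replicate 3 and, for Cavin1, in E18 replicate 3.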

How the data were processed

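Total RNA of 6 sorted samples was amplified by repeated cDNA synthesis and biotin-labelled for mouse 3' expression arrays, per the labels' protocols. The deposited values are linear signal intensity per probe set, which the authors made with MAS5 in Affymetrix Expression Console, per the submitters' processing notes. Each array had a trimmed mean of 500.003 or 500.004. Values were log2 transformed here with no pseudocount.

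Gene names came from the array's gene table (34741 probe sets of a single symbol matched RefSeq GRCm38.p6 by gene ID). A gene was tested if its brightest probe set was at or above the detection floor, the 40th percentile of the array, on at least 3 of 6 arrays. The comparison used limma (version 3.58.1, R version 4.3.3) on all 6 arrays, with an intensity trend and Benjamini-Hochberg adjustment over the 13335 genes. The fit was tested on simulated data.

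The members, the 13 gene lists and the tests were chosen with earlier results of these data known. All 4 members are named. From each list of related genes up to 4 that passed are named, or the 2 brightest where fewer than 2 passed, and the 3 nearest profiles per member. Pacsin3, Ehd1, Ehd3, Ehd4, Cav3, Plvap, Nos3, Epn2, Lyz1 and the single marker genes were chosen after their values were seen. For genes under the floor in all 3 arrays of the lower group, folds were computed against the floor and are given as "at least". The labels call the samples biological replicates and say no more of their source, so p-values measure the spread between these samples, which may be in part technical.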

Additional observations from a re-analysis of the deposited data

How the results depend on the processing

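All 4 members kept a negative difference under the 18 alternatives fitted to the whole table and within replicate 3. Cav1 passed in all 18, Cav2 in 8, Cavin1 in 13 and Cavin2 in 7. Quantile normalization, centring on medians, a pseudocount of 50 and values set to the floor changed no member's call. With no filter, with the floor required on all 6 arrays, without an intensity trend or with the replicate block, Cav2 (-2.33) and Cavin2 (-2.61) kept their size and did not pass. With E18 replicates 1 and 2, the most alike arrays, averaged as 1 sample, Cav2 (-2.33), Cavin1 (-4.02) and Cavin2 (-2.62) did not pass. With probe sets averaged, Cav2 (-1.43), Cavin1 (-1.41) and Cavin2 (-2.07) did not pass, and 2 of the 3 Cavin1 probe sets were under the floor. The other tested probe sets gave -0.53 for Cav2 and -1.999 and -1.60 for Cavin2. Within replicate 3 the values were -4.16, -1.25, -2.23 and -1.11 for Cav1, Cav2, Cavin1 and Cavin2. Leaving out 1 array gave -3.64 to -3.17 for Cav1, -2.87 to -1.75 for Cav2, -4.84 to -3.70 for Cavin1 and -3.37 to -2.22 for Cavin2.

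Of all genes 798 passed, and 393 with the floor on all 6 arrays, 492 with the replicate block, 2996 in replicates 1 and 2, 63 with the E18 pair averaged, and 66 to 2770 with 1 array left out. Share lower among calls was 76.4%, and 70.8% and 71.7% after quantile normalization and centring, where the median over all genes moved from -0.17 to -0.05 and -0.02. Same-numbered samples did not deviate together (correlations 0.04, -0.14 and -0.06 for numbers 1, 2 and 3, and 0 of 6 samples correlated best with their own number), so the block was not used.

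Of the 4 coat partners that passed (with Cavin4), 1 did with the floor on all arrays, 2 with probe sets averaged, 2 with the block, 0 with the E18 pair averaged and 0 to 4 with 1 array left out. The cargo list had 3 in replicates 1 and 2 and 0 to 3 with 1 array left out. The clathrin list had 2 in replicates 1 and 2, 0 with probe sets averaged, the block, no trend or the E18 pair averaged, and 0 to 2 with 1 array left out. In these settings with 0 by limma, unadjusted p under 0.05 was reached by 4 coat, 0 to 5 cargo and 2 to 4 clathrin genes. Flna had 0.039 without adult replicate 1, and -0.84 to 0.039 with 1 array left out.

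With 1 array left out, the change of Cav1 minus Cav2 was -1.83 to -0.30, Cav1 minus Cavin1 0.05 to 1.60, Cav1 minus Cavin2 -1.42 to 0.20, Cav2 minus Cavin1 1.31 to 2.65, Cav2 minus Cavin2 -0.16 to 0.50 and Cavin1 minus Cavin2 -2.22 to -1.34. The reversals were 0.20 (without adult replicate 3) and -0.16 (without adult replicate 2), and Cav2 minus Cavin2 was also -0.34 and -0.73 with the other Cavin2 probe sets. The cause of these changes was not tested.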
